A study of Mus musculus with 6 samples.

Results

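The interferon-inducible p200 genes form a cluster on mouse chromosome 1. The 10 members described here, Ifi203, Ifi204, Ifi206, Ifi207, Ifi208, Ifi209, Ifi211, Ifi213, Mndal and Aim2, were found by symbol among 47561 rows of the deposited gene counts. They were chosen by measured values of these data: 0 counts of Ifi208 and Ifi213 in every Piezo1 KO library led to the choice of the family. All member values between KO and control are therefore given as a description, with no test.

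The study sequenced RNA of long-term haematopoietic stem cells (LT-HSCs), the rare bone marrow cells that renew the blood system, sorted from mice of 2 groups, control and Piezo1 KO (a knockout by its label). Piezo1 is a mechanically gated cation channel of the plasma membrane. There were 3 control and 3 KO libraries. The control libraries carry the genotype label WT, and all 3 KO libraries are called Piezo1 KO in their titles, while the genotype label reads Piezo1 knockout for KO replicate 1, Piezo2 knockout for replicate 2 and Piezo3 knockout for replicate 3. Groups were taken from the titles. Piezo1 itself did not separate them: it had 1027, 479 and 1351 counts in control and 255, 481 and 590 in KO, so control replicate 2 lay below KO replicates 2 and 3. The term KO library therefore means a library labelled KO throughout. The labels state no age, sex, strain or treatment, nor how or in which cells Piezo1 was deleted, and do not say whether each library came from its own mouse. The replicate spread behind every p-value here may thus be partly technical.

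Each p200 protein joins an amino-terminal pyrin domain, which binds other pyrin domains, to one or more carboxy-terminal HIN domains, which bind DNA, although some members lack one of these parts. Aim2 assembles an inflammasome on cytosolic double-stranded DNA through Pycard and Casp1, and several Ifi proteins act in the nucleus or upstream of Sting1. Many members are induced by type I interferon, and the family is best known from myeloid and lymphoid cells of the blood.

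The copies are alike in sequence, which bears on how their reads can be assigned. To show how alike, the first 105 coding bases of 8 members are printed 5′ to 3′ from the GENCODE M21 transcripts (GRCm38). Capitals mark bases unlike Ifi208 at the same position. Ifi208 and Ifi213 are read from their second ATG, 12 bases into the annotated coding sequence, and Mndal from the codon after the first of the others.
Ifi208: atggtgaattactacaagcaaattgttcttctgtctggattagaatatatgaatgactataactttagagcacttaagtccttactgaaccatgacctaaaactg
Ifi213: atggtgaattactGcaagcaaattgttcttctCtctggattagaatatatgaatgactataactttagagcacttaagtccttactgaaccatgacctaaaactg
Ifi206: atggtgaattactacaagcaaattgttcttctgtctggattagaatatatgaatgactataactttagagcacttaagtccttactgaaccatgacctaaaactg
Ifi204: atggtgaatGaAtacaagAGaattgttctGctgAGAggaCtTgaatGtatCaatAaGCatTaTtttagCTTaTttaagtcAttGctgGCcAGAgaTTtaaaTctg
Ifi211: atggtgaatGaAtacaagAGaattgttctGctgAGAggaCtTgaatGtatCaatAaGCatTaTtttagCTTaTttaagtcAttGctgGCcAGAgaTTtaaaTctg
Mndal: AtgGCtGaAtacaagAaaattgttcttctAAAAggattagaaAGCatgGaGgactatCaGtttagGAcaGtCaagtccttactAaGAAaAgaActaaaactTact
Ifi203: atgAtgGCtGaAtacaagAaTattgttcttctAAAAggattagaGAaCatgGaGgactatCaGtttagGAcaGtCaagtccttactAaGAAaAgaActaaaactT
Aim2: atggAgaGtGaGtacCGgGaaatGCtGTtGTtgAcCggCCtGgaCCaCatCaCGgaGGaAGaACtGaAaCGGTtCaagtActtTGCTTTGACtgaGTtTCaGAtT

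Over these 105 bases Ifi206 had 0 bases unlike Ifi208 and Ifi213 had 2. Ifi204 and Ifi211 each had 31, at the same positions and with the same letters. Mndal had 28, Ifi203 had 29 and Aim2 had 54. These first 105 letters thus fall into groups of close copies: Ifi208 with Ifi213 and Ifi206, Ifi204 with Ifi211, and Mndal with Ifi203. For Mndal the grouping did not hold over the whole coding sequence. There it was 86.4% identical to Ifi211 (1272 aligned bases) and 83.3% to Ifi204 (1343 bases), more than to Ifi203. Over all aligned coding bases Ifi208 and Ifi213 were 96.8% identical (401 bases, since the chosen Ifi213 transcript has a coding length of only 405 bases), Ifi206 and Ifi213 95.9% (389 bases), Ifi204 and Ifi211 95.7% (1269 bases), Ifi206 and Ifi208 85.6% (1712 bases), and Ifi203 and Mndal 77.2% (1336 bases).

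How much of each transcript is unique was measured as the share of its 50-base words that occur in any transcript of another gene. The share was 72.8% for Ifi211, 35.1% for Ifi209, 30.2% for Ifi204, 27.2% for Mndal, 26.1% for Ifi206, 25.9% for Ifi208 and 20.1% for Ifi213. It was 7.76% for Ifi203, 7.39% for Ifi207 and 0.789% for Aim2. Most words of Ifi208 and Ifi213 thus occur in no other annotated gene, whereas most of those of Ifi211 do. Ifi208 shared 21.0% of its words with Ifi213 and 10.8% with Ifi206, while Ifi211 shared 44.7% with Ifi205 and 30.1% with Ifi204. Ifi211 also shared 17.1% with Mndal, and Mndal shared 15.0% of its words with Ifi211 against 5.51% with Ifi203. With 100-base words the shares fell to 8.23% for Ifi208 and 5.08% for Ifi213 and stayed at 56.9% for Ifi211. The read length and the treatment of reads that fit several places are not given in the sources used here, so counts of single copies other than Aim2 are uncertain where reads could be split.

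**Figure D1:**
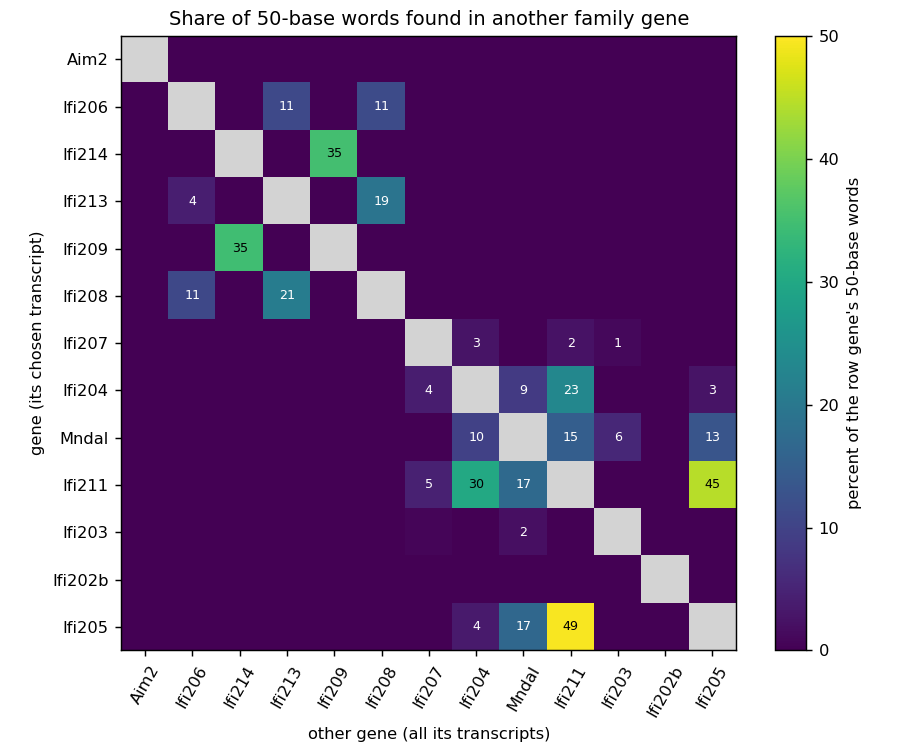
Percent of the 50-base words of each row gene's chosen transcript that occur in any transcript of the column gene, for 13 p200 genes in chromosome order; grey cells are a gene against itself. The members fall into blocks: Ifi206, Ifi208 and Ifi213 share words among themselves, Ifi209 shares 34.7% with Ifi214, and Ifi211 shares most with Ifi205 and Ifi204.

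Promoters were alike too, but only within sets of close copies. RefSeq start sites (GRCm38.p6) were matched for 9 members, with 11 promoters in all; Ifi204 had no entry. The 110 bases before the start are printed 5′ to 3′ on the gene's strand for the group holding Ifi208, for the 2 members with most counts, and for Ifi209. Capitals mark GAAANNGAAA, the core of the element bound by interferon-activated factors, searched on both strands.
Ifi208, chr1:173673555-173673664 (plus strand): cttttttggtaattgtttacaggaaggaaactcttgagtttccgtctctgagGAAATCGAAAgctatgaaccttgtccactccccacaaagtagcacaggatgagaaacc
Ifi213, chr1:173599273-173599382 (minus strand): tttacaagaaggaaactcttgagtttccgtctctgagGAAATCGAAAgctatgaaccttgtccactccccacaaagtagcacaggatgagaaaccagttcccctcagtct
Ifi206, chr1:173491319-173491428 (minus strand): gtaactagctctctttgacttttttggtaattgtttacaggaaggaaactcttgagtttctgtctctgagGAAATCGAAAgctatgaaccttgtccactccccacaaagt
Mndal, chr1:173880188-173880297 (minus strand): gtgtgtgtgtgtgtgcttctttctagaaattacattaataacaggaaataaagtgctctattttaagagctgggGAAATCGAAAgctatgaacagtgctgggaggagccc
Ifi203, chr1:173942493-173942602 (minus strand): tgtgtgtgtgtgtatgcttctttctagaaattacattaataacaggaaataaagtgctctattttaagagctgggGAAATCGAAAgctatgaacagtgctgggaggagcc
Ifi209, chr1:173630749-173630858 (plus strand): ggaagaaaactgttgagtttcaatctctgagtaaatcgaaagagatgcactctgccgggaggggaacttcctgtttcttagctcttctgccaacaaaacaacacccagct

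The letters GAAANNGAAA occurred in 7 of the 9 members with a promoter, counting matches on either strand in the 300-base windows: Ifi203, Ifi206, Ifi207, Ifi208, Ifi211, Ifi213 and Mndal. They occurred in 3.44% of all 32851 RefSeq promoters. In 6 of the 7 the letters were GAAATCGAAA, found in 16 promoters in all, and in Ifi211 they were GAAATTGAAA. The first base lay 58 bases before the start in Ifi208 (position -58), at -73 in Ifi213, -40 in Ifi206, -36 in Mndal and -35 in Ifi203. No member promoter held TTCNNNGAA, the core of the other interferon-responsive element, which 8.30% of all promoters held. Promoters of Ifi208 and Ifi206 were 99.3% identical, those of Ifi208 and Ifi213 98.9%, and those of Mndal and Ifi203 97.6%. Near-identical pairs thus include Ifi208 with Ifi213, at 0 counts in KO, and Mndal with Ifi203, with at least 3800 counts in every library. Between these pairs promoters were less alike. Over aligned bases that of Ifi208 was 62.0% identical to the printed promoter of Mndal and 65.2% to that of Ifi203. A match is a description of the letters and no sign of binding.

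Libraries held 59435258 to 64653956 counts and 16264 to 18540 rows with at least 1 count. Among marker lists of other blood cells, summed levels in CPM (the usual scaling of counts to library size, here with TMM factors) of 8 erythroid genes ranged from 474 to 4101 in control and from 7202 to 24743 in KO. Those of 6 megakaryocyte genes ranged from 729 to 986 in control and from 1588 to 2412 in KO, and both lists were higher in every KO library. The sum of 6 T and NK cell genes, 131 to 209 CPM in control and 247 to 255 in KO, was almost wholly Nkg7, with Cd8a at 0. Granulocyte genes ranged from 172 to 12237 in control, with the highest sum in control replicate 3, and from 120 to 1178 in KO. The 10 LT-HSC markers were all detected, at summed levels of 1032 to 1412 in control and 973 to 1242 in KO. Single markers differed in opposite directions within that sum. Ly6a was lower in every KO library (means of 327 CPM in control and 123 in KO), and Kit was higher (185 and 320). The rest overlapped between the groups, among them Procr at means of 48.7 and 13.8 CPM. In bulk RNA fewer cells of a type and less RNA per cell cannot be told apart.

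Ifi203 and Mndal held most of the family's RNA. Ifi203 (chr1:173920407-173942672, minus strand), which encodes a nuclear p200 protein, had 9039, 8632 and 5664 counts in control replicates 1 to 3 and 6303, 8696 and 8610 in KO replicates 1 to 3. The lowest library was control replicate 3 and the groups overlapped. Its mean was 126 ± 23.7 CPM in control against 129 ± 20.8 CPM in KO (SD, n = 3 each), a log2 fold change of 0.04 (SE 0.208). Mndal (chr1:173849126-173942491, minus strand), the mouse relative of the human myeloid nuclear differentiation antigen, had 9099, 8212 and 3800 counts in control and 4510, 7346 and 7280 in KO. It followed the order of Ifi203 closely at the bottom, with control replicate 3 and KO replicate 1 lowest in both genes. Mndal averaged 113 ± 41.4 CPM in control against 105 ± 25.4 CPM in KO (SD, n = 3 each), a log2 fold change of -0.11 (SE 0.323). The annotated exons of both genes overlap by 37 bases on the same strand.

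Aim2 (chr1:173350879-173466040, plus strand), the DNA sensor of the AIM2 inflammasome, had counts in all 6 libraries: 407, 1090 and 611 in control and 297, 556 and 508 in KO. KO replicate 1 was lowest and control replicate 2 highest, and control replicate 1 lay below 2 of the 3 KO libraries. The means were 11.2 ± 4.63 CPM in control against 7.45 ± 2.21 CPM in KO (SD, n = 3 each), a log2 fold change of -0.59 (SE 0.49), which moved to -0.27 when control replicate 2 was left out and to -0.38 when KO replicate 1 was. Because almost none of its 50-base words occur elsewhere, Aim2 is the member whose counts depend least on how shared reads were placed. Ifi204 (chr1:173747293-173766943, minus strand), a DNA sensor upstream of Sting1, had 103, 214 and 144 counts in control and 0, 305 and 185 in KO. KO held both its lowest and its highest library, and the means were 2.47 ± 0.724 CPM in control against 2.68 ± 2.55 CPM in KO (SD, n = 3 each).

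Ifi208 and Ifi213 had counts in every control library and none in any KO library. Ifi213 (chr1:173566283-173599274, minus strand) had 1112, 214 and 109 counts in control and 0, 0 and 0 in KO. Ifi208 (chr1:173673675-173698395, plus strand) had 656, 201 and 246 in control and 0, 0 and 0 in KO. Control replicate 1 held the most of both, at 18.4 CPM of Ifi213 against 3.14 and 1.96 CPM in the other control libraries. A count of 0 allows up to 3 counts, or 0.0481 to 0.0503 CPM in the KO libraries, counting error only. Against the mean of these floors over the KO libraries the control mean was at least 158-fold higher for Ifi213 and at least 123-fold higher for Ifi208. Without control replicate 1 these bounds were 51.6-fold and 74.5-fold. The bounds take a 0 as at most 3 reads; whether a 0 in this table means that is not stated. Since the family was chosen for this pattern, the bounds are no test of it.

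Ifi206 (chr1:173468485-173491041, minus strand), the copy with the promoter most like that of Ifi208, had 419, 0 and 90 counts in control and 0, 76 and 0 in KO. Among the libraries where Ifi208 and Ifi213 were at 0, Ifi206 had counts in KO replicate 2 alone. That value lay below control replicates 1 and 3 and above control replicate 2. Summed over these 3 copies, among which reads would be shared first, levels were 6.08 to 36.1 CPM in control and 0 to 1.26 CPM in KO. Ifi208 and Ifi213 alone made up 6.08 to 29.2 CPM of it in control, so the lower sum follows from the choice of the family and says nothing of how reads were split.

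The remaining members had counts in some libraries of both groups. Ifi211 (chr1:173896345-173913046, minus strand) had 229, 317 and 116 counts in control and 0, 178 and 0 in KO. Ifi209 (chr1:173630917-173647928, plus strand) had 0, 0 and 89 in control and 94, 0 and 219 in KO. Ifi207 (chr1:173723427-173741747, minus strand) had 295, 0 and 0 in control and 0, 4 and 0 in KO, too few to enter the fit across genes. Each of these genes had its counts in a different set of libraries, and all 3 overlapped between the groups. The fitted log2 fold changes of Ifi204, Ifi211, Ifi206 and Ifi209 were 0.11, -1.83, -2.75 and 1.67, each smaller than or close to its SE of 1.64 to 2.71. Single libraries decided them: without KO replicate 2, Ifi211 and Ifi206 had 0 counts in all KO libraries and fitted values of -10.7 and -10.4, and without control replicate 3, Ifi209 had 0 in all control libraries and a fitted value of 9.72. Fitted values against a group at 0 depend on the prior count. That of Ifi204 ran from -0.74 without KO replicate 2 to 0.68 without KO replicate 1. Together with its nearest relatives Ifi204 and Ifi205, of which Ifi205 is a p200 gene outside the 10 members, Ifi211 summed to 4.67 to 10.7 CPM in control and 0 to 10.9 CPM in KO. KO replicate 1 had 0 counts of all 3. Mndal, with which Ifi211 also shared 17.1% of its words, was not part of this sum. In KO replicates 1 and 3, where Ifi211 was at 0, Mndal had 4510 and 7280 counts. Whether reads of Ifi211 were counted as Mndal was not tested.

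Ifi205 alone had 226, 201 and 0 counts in control and 0, 173 and 168 in KO, while Ifi202b and Ifi214 had 0 counts in all 6 libraries. Ifi202b encodes a protein without a pyrin domain and is known to vary in expression between mouse strains.

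**Figure D2:**
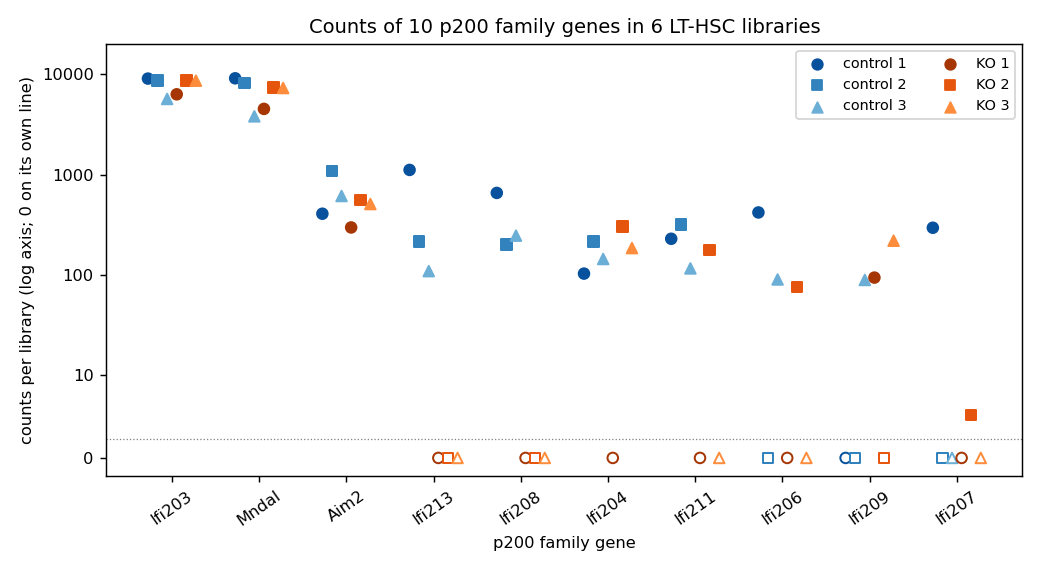
Deposited counts of each of the 10 members (horizontal axis, in order of mean level) in each of the 6 libraries (vertical axis, log scale, with counts of 0 on a line of their own as open symbols; blue control, orange KO, shape for the replicate number). Ifi203 and Mndal lie between 3800 and 9099 counts in every library, whereas Ifi208 and Ifi213 have 0 in all 3 KO libraries and Ifi207 has more than 4 counts in control replicate 1 alone.

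Per library, 9, 7 and 9 of the 10 members had counts in control replicates 1 to 3, and 4, 7 and 5 in KO replicates 1 to 3. The members with counts in KO replicate 1 were Ifi203, Mndal, Aim2 and Ifi209. In all, 7 members had counts in all 3 control libraries and 3 members (Ifi203, Mndal and Aim2) in all 3 KO libraries. Of 60 member counts 19 were 0, 5 of 30 in control and 14 of 30 in KO. The 14 include Ifi208 and Ifi213 in all 3 KO libraries, so this difference was partly fixed by the choice of the family. Over the whole table, 16264 to 17994 rows had counts in control libraries and 17695 to 18540 in KO libraries. Values just above 0 were nearly missing: only the 4 counts of Ifi207 in KO replicate 2 lay between 1 and 50, and the next lowest was 76. A copy was thus either at 0 or at 76 counts or more in 59 of the 60 cases.

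Jumps from 100 or more counts to 0 were common in the whole table. Of 15530 rows that reached 100 counts in a library, 3003 had 0 in another (19.3%), and of the 10 members, which all reached 100, 7 did. The share depended on the highest count of the row. It was 53.1% for rows whose highest count was 200 to 400, the range of Ifi204, Ifi207, Ifi209 and Ifi211, and 22.0% for 400 to 800, the range of Ifi206 and Ifi208. It was 5.10% for 800 to 1600, the range of Ifi213 and Aim2, and 0.411% for 6400 to 12800, the range of Ifi203 and Mndal. Rows with a 0 were thus most rows at the highest count of Ifi204, Ifi207, Ifi209 and Ifi211, and a minority at those of Ifi206, Ifi208 and Ifi213. The place of Ifi213 rests on the 1112 counts of control replicate 1; its next highest count, 214, lies in the range with 53.1%.

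**Figure D3:**
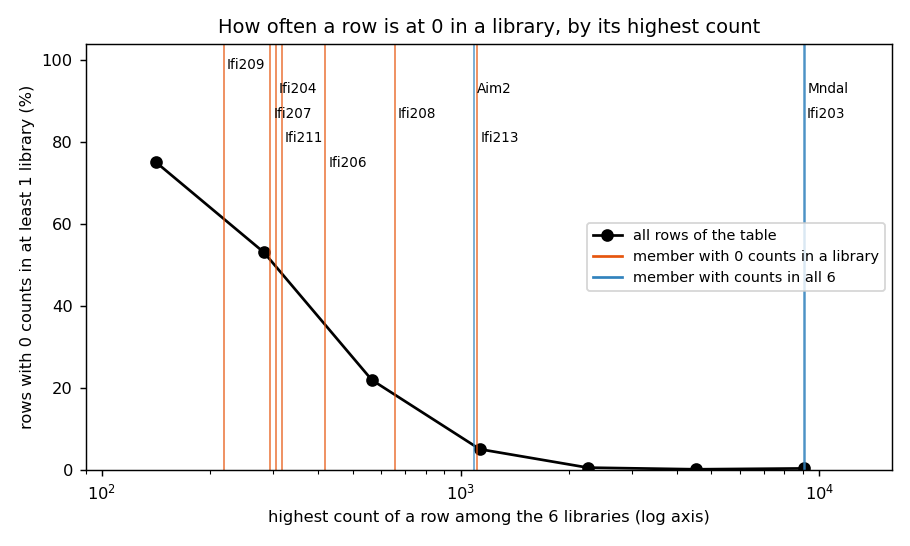
Percent of rows with 0 counts in at least 1 library (vertical axis) by the highest count of the row among the 6 libraries (horizontal axis, log scale; points at the middle of each doubling bin from 100 counts up). Vertical lines mark the members' highest counts, orange with a 0 in a library and blue without; the share drops from 75.2% for 100 to 200 counts to 0.607% for 1600 to 3200 counts.

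Counts in all of one group and in none of the other were rarer. With 0 counts in every KO library and at least 10 in every control library there were 19 rows (0.0399% of 47561), and by mean control level Ifi213 and Ifi208 held ranks 2 and 3 among them. The reverse pattern held 84 rows (0.177%). Ugt1a7c, a copy of a detoxifying UDP-glucuronosyltransferase gene, stood first with 1021, 1457 and 1276 counts in control and 0 in KO. The next after Ifi208 were Gm35456, Stxbp6, Gm33641, Mfsd2a, Ntn4, Pitpnm2os2 and Rnf32, each at 3.42 CPM or lower in control. Among the rows at 0 in control the highest were B3gat2, LOC118568235, Gm11772, Fkbp10, Gm49208, Creb3l1, Bhlhe41, Btbd11, Sh2d1b1 and Scamp5, with B3gat2 at 183, 53 and 1587 counts in KO. No other member showed either pattern.

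Compared per kilobase of the chosen transcript, Mndal had the highest level, at 55.7 ± 20.5 CPM per kb in control and 51.7 ± 12.5 in KO (SD, n = 3 each). Ifi203 followed at 34.9 ± 6.58 and 35.9 ± 5.76 CPM per kb, and the libraries of both genes overlapped in each group. Aim2 came next at 3.95 ± 1.63 CPM per kb in control and 2.63 ± 0.78 in KO, below every library of Ifi203. After it the control order was Ifi213 (2.92 ± 3.41 CPM per kb), Ifi208 (2.03 ± 1.40), Ifi211 (1.96 ± 0.73), Ifi204 (1.08 ± 0.32), Ifi206 (0.93 ± 1.19), Ifi207 (0.47 ± 0.82) and Ifi209 (0.16 ± 0.27). No neighbours in this lower order, Aim2 and Ifi213 included, were separated beyond their libraries' spread. In KO, Ifi204 followed Aim2 at 1.17 ± 1.11 CPM per kb, then Ifi211 at 0.55 ± 0.96 and Ifi209 at 0.49 ± 0.51.

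The family sum overlapped between the groups. It was 353, 277 and 195 CPM in control replicates 1 to 3 and 188, 285 and 269 CPM in KO replicates 1 to 3. The mean was 275 ± 78.6 CPM in control against 247 ± 52.2 CPM in KO (SD, n = 3 each), a log2 ratio of KO over control of -0.15. Control replicate 3 and KO replicate 1 were the lowest libraries, as they were for Ifi203 and Mndal, which made up 84.9%, 89.2% and 87.1% of the family's counts in control and 96.5%, 93.5% and 94.6% in KO. Ifi208 and Ifi213 held 8.28%, 2.20% and 3.27% of the family in control, so that without them the log2 ratio was -0.08.

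Without Ifi203 and Mndal, a choice made after their levels were seen, the other 8 members summed to 53.2, 29.8 and 25.3 CPM in control, against 6.56, 18.6 and 14.6 CPM in KO. Every KO library lay below every control library, with means of 36.1 ± 15.0 and 13.3 ± 6.13 CPM (SD, n = 3 each) and a log2 ratio of -1.44. Leaving out Ifi208 and Ifi213 as well, the other 6 members summed to 24.0, 23.8 and 18.9 CPM in control, against 6.56, 18.6 and 14.6 CPM in KO, a log2 ratio of -0.74. That gap between the groups was small: the lowest control library exceeded the highest KO library by 18.9 against 18.6 CPM, and on library totals alone they overlapped, at 17.3 to 25.1 CPM in control and 6.51 to 18.8 CPM in KO.

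Markers of 2 myeloid cell types were summed beside these values. The 7 dendritic cell markers, of which Itgax, Xcr1 and Siglech were at 0 in all libraries, summed to 188 to 253 CPM in control and 65.2 to 137 CPM in KO. Almost all of it came from H2-Aa (means of 102 CPM in control and 38.7 in KO), Bst2 (68.5 and 38.2) and Cd74 (57.6 and 27.2). Cd74 overlapped between the groups, and Ly6d averaged 0.505 and 0 CPM. The 11 monocyte and macrophage markers summed to 532 to 1478 CPM in control and 323 to 572 CPM in KO, and overlapped. Their part in the lower sum of the 8 members was not tested.

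**Figure D4:**
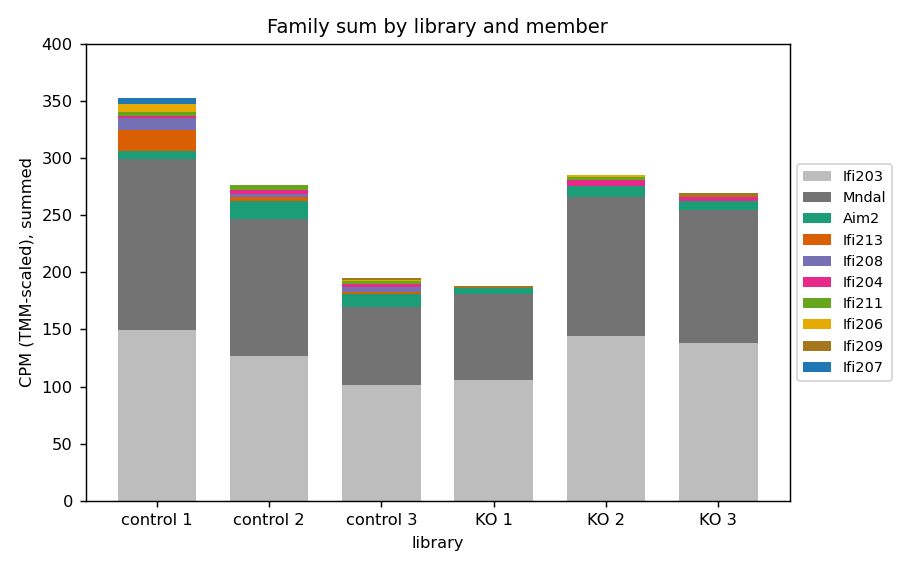
Stacked level of the 10 members in each library (vertical axis: CPM on TMM-scaled library sizes; horizontal axis: library), with Ifi203 and Mndal in grey and the other 8 members in colour. The total runs from 188 CPM in KO replicate 1 to 353 CPM in control replicate 1, and the coloured part is 25.3 to 53.2 CPM in control and 6.56 to 18.6 CPM in KO.

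Groups did not overlap for 2 of the 10 members, Ifi208 and Ifi213, both lower in KO; among all 16022 genes tested 8.76% were lower and 10.7% higher in KO without overlap. As this contrast chose the members, nothing is read from that count. Of the 9 members with enough counts for the fit, 6 had a negative and 3 a positive log2 fold change, with a median of -0.59 against 0.03 over all genes tested. The fit was edgeR's quasi-likelihood test with Benjamini-Hochberg adjustment over all genes. It called 0 genes at an adjusted p under 0.05 (0.0%), its lowest adjusted p was 0.172, and at an unadjusted p under 0.05 it held 896 genes lower (5.59%) and 871 higher (5.44%) in KO. DESeq2 called 329 lower (2.05%) and 192 higher (1.2%), and limma-voom called 0.

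The genes that p200 sensors signal through were read from a list of 27 genes of DNA sensing and the inflammasome. Of these 22 were tested and 0 passed edgeR's adjusted threshold, while 6 had an unadjusted p under 0.05, all lower in KO. Among all genes tested, 5.59% were lower and 5.44% higher in KO at that unadjusted threshold. In direction, 18 of the 22 had a negative log2 fold change and 4 a positive one, with a median of -0.49 against 0.03 over all genes tested. The count of 6 depended on single libraries: it was 2 without control replicate 1, 3 without control replicate 2, 2 without KO replicate 1 and 0 without KO replicate 3.

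Pycard, the adaptor that links Aim2 to caspase 1, had 168, 173 and 195 CPM in control, against 143, 140 and 93.0 CPM in KO. All KO libraries lay below all control libraries, at means of 179 ± 14.1 and 125 ± 28.0 CPM (SD, n = 3 each), and the log2 fold change of -0.51 (SE 0.204) had an adjusted p of 0.425 by edgeR. Casp1, the protease of the inflammasome, had 59.5, 37.1 and 52.3 CPM in control, against 26.9, 37.1 and 27.7 CPM in KO. Control replicate 2 and KO replicate 2 nearly coincided, and the log2 fold change was -0.70 (SE 0.263, adjusted p = 0.400 by edgeR). Both partners of Aim2 were thus at lower mean levels in KO without passing the test.

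Zbp1, an interferon-induced sensor of Z-form nucleic acid, had 17.2, 18.3 and 20.2 CPM in control, against 9.09, 11.6 and 5.28 CPM in KO. Its groups did not overlap, and its log2 fold change of -1.10 (SE 0.393) had an adjusted p of 0.386 by edgeR. Irf3, the transcription factor activated downstream of Sting1, had 59.4, 63.7 and 51.9 CPM in control, against 36.0, 44.0 and 33.5 CPM in KO. These did not overlap either (log2 fold change -0.62, SE 0.204, adjusted p = 0.360 by edgeR). Sting1, the adaptor of cytosolic DNA signalling, had 79.7, 61.6 and 11.6 CPM in control, against 11.6, 24.9 and 12.7 CPM in KO. Control replicate 3 lay at the level of the KO libraries, and the log2 fold change was -1.64 (SE 0.674, adjusted p = 0.441 by edgeR). Naip2, a sensor of bacterial proteins named here after its values were seen, went the other way. It had 1.73, 14.1 and 10.8 CPM in control, against 18.2, 30.2 and 24.8 CPM in KO, every KO library being higher (log2 fold change 1.46, SE 0.697, adjusted p = 0.504 by edgeR). Its adjusted p ranged from 0.189 with DESeq2 to 0.800 without KO replicate 3. The summed dendritic cell list given above, carried by H2-Aa, Bst2 and Cd74, was lower in the KO libraries. Its part in these values was not tested.

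The genes that induce the family were read from a list of 24 interferon receptors and signalling genes, of which 23 were tested. By edgeR 0 passed the adjusted threshold, and at an unadjusted p under 0.05 Irf7 and Irf1 were lower and Jak2 higher in KO. The shares among all genes tested were 5.59% lower and 5.44% higher. Of the 23, 10 had a negative and 13 a positive log2 fold change, with a median of 0.12 against 0.03 over all genes tested. The list as a whole thus leaned neither way, and its median ran from -0.06 without KO replicate 3 to 0.19 without KO replicate 1.

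Jak2, a kinase of the interferon gamma receptor and of cytokine receptors such as those for erythropoietin and thrombopoietin, had 28.4, 53.2 and 43.4 CPM in control, against 78.8, 93.8 and 99.8 CPM in KO. Every KO library exceeded every control library, with means of 41.7 ± 12.5 and 90.8 ± 10.8 CPM (SD, n = 3 each). The log2 fold change of 1.12 (SE 0.264) had an adjusted p of 0.255 by edgeR, and with DESeq2 the adjusted p was 0.00657. Over all alternatives it ranged from 0.00657 to 0.618. Erythroid and megakaryocyte markers were higher in the same 3 libraries, and their part in this value was not tested.

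Irf7, the interferon-induced factor that amplifies type I interferon, had 32.0, 20.8 and 22.3 CPM in control, against 15.6, 12.8 and 6.38 CPM in KO. The groups did not overlap (log2 fold change -1.11, SE 0.411, adjusted p = 0.397 by edgeR). Irf1, an activator of interferon gamma targets, had 62.1, 110 and 56.3 CPM in control, against 33.5, 53.8 and 40.5 CPM in KO, again without overlap (log2 fold change -0.84, SE 0.321, adjusted p = 0.407 by edgeR). Irf9, a subunit of the complex that binds the interferon-stimulated element searched in the promoters, had 128, 94.8 and 69.1 CPM in control, against 58.2, 57.4 and 84.7 CPM in KO, with overlap (log2 fold change -0.54, SE 0.279, adjusted p = 0.533 by edgeR).

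**Figure D5:**
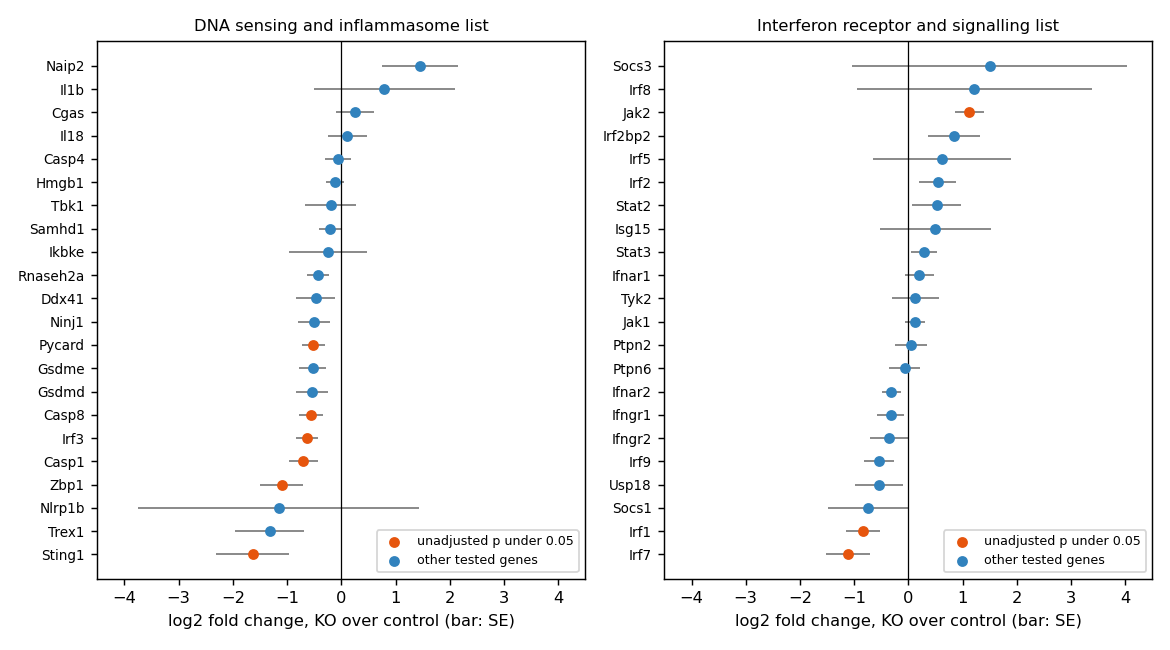
Log2 fold change of KO over control (horizontal axis; points, with bars of 1 SE) for the tested genes of the DNA sensing and inflammasome list (left, 22 genes) and of the interferon receptor and signalling list (right, 22 of 23 genes), sorted by fold change. Orange points have an unadjusted p under 0.05 and none passed the adjusted threshold; 18 of the 22 points on the left lie below 0, and those on the right lie on both sides of it.

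The rows most like Ifi208 in their log2 CPM over the 6 libraries, by Pearson's r, were Gm550 (0.998), Gm46383 (0.997), Abhd11 (0.994), Gm15542 (0.993), Patj (0.993) and Stxbp6 (0.992). Those most like Ifi213 were 1700003F12Rik (0.998), Eef1g (0.997), Gm550 (0.995), Gm5499 (0.993), Patj (0.992) and Abhd11 (0.990). Ifi213 stood at rank 16 of the rows like Ifi208, with an r of 0.989, and Ifi208 at rank 11 of those like Ifi213. Each r rests on 6 libraries in which 3 values are 0, and is a description of the pattern.

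Genes beside the cluster had other patterns. Of 10 genes on either side, 15 were olfactory receptor genes, 14 of the 20 had 0 counts in all libraries and 4 had enough counts to be tested. Ackr1, an atypical chemokine receptor of erythroid and endothelial cells, had 0, 263 and 0 counts in control and 473, 955 and 539 in KO. It was the neighbour whose groups did not overlap, with higher counts in KO (log2 fold change 3.07, SE 2.04). Counts of 0 in KO thus did not extend from Ifi208 and Ifi213 to Ackr1, and the erythroid markers were higher in the same KO libraries.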

How the data were processed

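RNA of sorted mouse LT-HSCs was measured in 3 control and 3 Piezo1 KO libraries, from TRIZOL-extracted RNA with a TruSeq kit per the labels. The deposited files hold unnormalized gene counts that the authors made with bcl2fastq 2.19, cutadapt 1.16.5, HISAT2 2.1 and featureCounts 1.6.4 on mm10, per the submitters' processing notes, which also name DESeq2 2.11.40.6. Strand, read length and the treatment of reads that fit several places are not given in the sources used here, and 2046 rows carry names of assembled rather than annotated genes. No library was a copy of another: within groups counts differed by a chi-square of 123 to 360 per gene.

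Counts were fitted with edgeR 4.0.16 (R 4.3.3; TMM scaling, its default filter on low counts, quasi-likelihood test, Benjamini-Hochberg adjustment over 16022 genes, common biological coefficient of variation 0.755). Simulated data held 16022 genes of this depth and spread, with changed genes drawn only from those with a mean of at least 5 CPM. The fit recovered 6 of 50 genes changed 2-fold, 31 of 50 changed 4-fold, 41 of 50 changed 8-fold and 48 of 50 changed 16-fold, with 5 unchanged genes called. By their mean over all 6 libraries Ifi204, Ifi206, Ifi208, Ifi209, Ifi211 and Ifi213 lay below that level, so these counts do not cover them. Whether the simulated counts copy the jumps to 0 described above was not tested. Alternatives were other scalings, filters, DESeq2 1.42.0, limma 3.58.1 (voom), a replicate block and leaving out each library. A count of 0 was read as at most 3 counts in that library.

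The members and gene lists were chosen with earlier results of these data known. Named were all members, the 4 genes of each list with the lowest p, Irf7, Pycard, Casp1 and Sting1, the 6 rows most like Ifi208 and Ifi213, and up to 10 rows at 0 in one group only. Markers of 11 cell types were summed; lists for progenitors, B cells, mast cells and basophils, and stroma and endothelium overlapped between the groups. Sequence likeness was computed from GENCODE M21 transcripts and RefSeq promoters. Fold changes of Ifi208 and Ifi213, at 0 in one group, depend on the prior count and are not printed. Values of 2 further genes that the rules would name or show are not reported here.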

Additional observations from a re-analysis of the deposited data

How the results depend on the processing

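At an adjusted p under 0.05 edgeR called 0 genes, and 1 lower gene when genes had to reach 5 CPM in 3 libraries; DESeq2 called 329 lower and 192 higher, 1 of them in the interferon list (Jak2). Leaving out each library in turn gave 0 to 1 higher genes (1 without control replicate 1). Unadjusted counts of 896 lower and 871 higher genes ranged from 573 to 1299 (573 without control replicate 1, 584 without KO replicate 3) and from 562 to 1339 (562 without KO replicate 3, 1339 without control replicate 3). In the DNA sensing list the 6 lower genes became 0 to 7 with a library left out, and the 0 higher genes became 1 (Naip2) under the filter of 5 CPM, DESeq2, limma-voom and the replicate block, and 0 to 1 with a library left out. In the interferon list the 2 lower genes became 1 on library totals alone and 1 to 3 with a library left out, and the 1 higher gene became 1 to 3. The cause of these changes was not tested.

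Same-numbered libraries hardly deviated together (r of 0.0379, 0.0144 and 0.0334 over genes). Libraries of unlike number gave lower values, from -0.0385 to 0.00764. Whether the numbers pair libraries cannot be told from values this small. With a replicate block 0 genes passed the adjusted threshold, 762 were lower and 835 higher at an unadjusted p under 0.05, and 3 genes of the DNA sensing list were lower.

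The family sum's log2 ratio of -0.15 ranged from -0.35 to 0.07 with a library left out. It was -1.44 without Ifi203 and Mndal, a choice made after seeing the data. That sum of 8 members ranged from -1.77 to -1.06 with a library left out, and was -0.74 without Ifi208 and Ifi213. As Ifi208 and Ifi213 led to the choice of the family, its lower level in KO was partly fixed by that choice. Among single members the log2 fold change of Ifi204 was 0.11 and turned to -2.24 with limma-voom, that of Ifi211 went from -1.83 to -10.7 and that of Ifi206 from -2.75 to -10.4 without KO replicate 2, that of Ifi209 from 1.67 to 9.72 without control replicate 3, that of Aim2 from -0.59 to -0.27 without control replicate 2, and those of Ifi203 and Mndal changed sign within their errors, from -0.09 to 0.18 and from -0.37 to 0.15, with a library left out. At a minimum of 50 counts the rows at 0 in every KO library fell from 19 to 8 and those at 0 in every control library from 84 to 18. The 7 members other than Ifi203, Mndal and Aim2 carry a 0 in at least 1 library each, and what those 0 counts stand for was not tested; 3 libraries a group recover few 2-fold changes.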
